A study of Mus musculus with 6 samples.

Results

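The 10 genes described here write, maintain and remove DNA methylation: Dnmt1, Dnmt3a, Dnmt3b, Dnmt3l, Uhrf1, Hells, Tet1, Tet2, Tet3 and Tdg. They were chosen by symbol, and each of the 10 symbols matched 1 of the 23244 loci listed for every library. Expression was measured by RNA sequencing of ribosomal-RNA-depleted total RNA from mouse embryonic stem (ES) cells, which are cultured pluripotent cells of the early embryo, to ask how much changes when the SCAN-domain zinc-finger gene Zscan10 is absent. The Zscan10-null group held 3 libraries of a subcloned ES cell line, labelled Zscan10_KO, in which Zscan10 was constitutively knocked out; the study's line was built for inducible Cre-loxP deletion. The floxed control group held 3 libraries of ES cells in which Zscan10 was flanked by loxP sites but not deleted, labelled Zscan10_f/f-Tx. The null line was a subclone and the mark -Tx stands only in the control titles, so genotype, clone and any treatment difference cannot be told apart. The labels do not say whether the libraries of 1 group are separate cultures. The p-values therefore refer to the spread among these libraries, part or all of which may be technical.

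In mammalian DNA, methylation sits mostly on cytosine in the CpG dinucleotide. DNMT3A and DNMT3B methylate sites that were unmethylated, and DNMT3L, which has no catalytic activity of its own, binds and stimulates them in ES cells and germ cells. UHRF1 recognises the hemimethylated sites left by replication and brings in DNMT1, which copies the mark to the new strand, while the remodelling ATPase HELLS (LSH) opens nucleosomal DNA to the methyltransferases. TET1, TET2 and TET3 oxidise the methyl group, and thymine DNA glycosylase (TDG) cuts out the more oxidised forms so that base excision repair can restore cytosine. ES cells are known for high Dnmt3b, Dnmt3l, Tet1 and Tet2 and for little Tet3. All values below are RNA levels, and DNA methylation itself was not measured.

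Sequences are shown for the start sites of the 3 maintenance genes that held an E2F motif and for those of the de novo genes, because these are the groups the results turn on. The windows are RefSeq promoters of build GRCm38.p6, which is mm10, and run from 250 bases before to 50 bases after an annotated start, read 5′ to 3′ on the gene's strand. Capitals mark every match, on either strand, to an E2F motif (TTTCCCGC, TTTGGCGC or TTTCGCGC), a GC box (GGGCGG) or the octamer ATGCAAAT. Dnmt1 is shown at chr9:20952574-20952873 (minus strand), Uhrf1 at chr17:56304063-56304362 (plus) and Hells at chr19:38930740-38931039 (plus). Dnmt3a is shown at chr12:3891494-3891793 (plus), the internal start, Dnmt3b at chr2:153649199-153649498 (plus) and Dnmt3l at chr10:78049592-78049891 (plus), the middle of its 3 annotated starts.
Dnmt1: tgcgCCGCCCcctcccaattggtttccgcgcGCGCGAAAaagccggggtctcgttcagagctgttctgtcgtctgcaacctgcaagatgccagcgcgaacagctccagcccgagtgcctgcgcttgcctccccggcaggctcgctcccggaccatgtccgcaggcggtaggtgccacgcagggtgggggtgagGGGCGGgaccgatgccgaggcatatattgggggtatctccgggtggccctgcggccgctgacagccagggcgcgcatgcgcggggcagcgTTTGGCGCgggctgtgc
Uhrf1: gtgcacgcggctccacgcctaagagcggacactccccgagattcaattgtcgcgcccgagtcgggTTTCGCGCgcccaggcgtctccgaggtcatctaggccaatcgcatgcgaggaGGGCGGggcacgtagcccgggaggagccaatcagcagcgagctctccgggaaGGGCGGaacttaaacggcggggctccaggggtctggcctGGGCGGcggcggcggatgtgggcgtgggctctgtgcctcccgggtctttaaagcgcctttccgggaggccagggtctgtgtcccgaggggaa
Hells: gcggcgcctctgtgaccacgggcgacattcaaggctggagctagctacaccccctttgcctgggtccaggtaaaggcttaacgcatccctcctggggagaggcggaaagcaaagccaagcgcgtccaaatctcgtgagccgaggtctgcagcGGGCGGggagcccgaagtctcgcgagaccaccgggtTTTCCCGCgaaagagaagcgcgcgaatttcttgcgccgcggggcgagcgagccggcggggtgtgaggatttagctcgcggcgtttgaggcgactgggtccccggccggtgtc
Dnmt3a: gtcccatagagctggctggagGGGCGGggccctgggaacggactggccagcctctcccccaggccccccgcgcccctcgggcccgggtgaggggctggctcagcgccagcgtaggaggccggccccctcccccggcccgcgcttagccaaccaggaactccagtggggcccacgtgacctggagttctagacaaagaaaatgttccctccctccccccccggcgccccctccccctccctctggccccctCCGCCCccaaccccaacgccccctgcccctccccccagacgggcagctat
Dnmt3b: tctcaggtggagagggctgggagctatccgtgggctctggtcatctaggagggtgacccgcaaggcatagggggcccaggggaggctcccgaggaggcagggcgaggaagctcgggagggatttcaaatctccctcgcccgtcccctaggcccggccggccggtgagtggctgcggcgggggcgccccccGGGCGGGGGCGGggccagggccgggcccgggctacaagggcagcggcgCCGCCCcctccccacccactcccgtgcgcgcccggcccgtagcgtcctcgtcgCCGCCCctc
Dnmt3l: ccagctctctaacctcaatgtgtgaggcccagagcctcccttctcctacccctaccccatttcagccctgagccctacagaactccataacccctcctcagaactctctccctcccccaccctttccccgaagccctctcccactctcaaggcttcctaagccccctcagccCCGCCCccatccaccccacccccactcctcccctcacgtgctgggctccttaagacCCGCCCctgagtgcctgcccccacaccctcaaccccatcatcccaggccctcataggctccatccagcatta

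The 10 genes had 17 annotated start windows. An E2F motif lay in 3 of them, 1 each of Dnmt1, Uhrf1 and Hells, against 1.84% of the 32851 promoters of the table. The Dnmt1 window held 2 E2F matches, and the Uhrf1 and Hells windows held 1 each. A GC box lay in 13 of the 17 windows, against 35.7% of all promoters, and the octamer in 0 of the 17, against 1.74%. CpG content differed between genes and between starts of 1 gene, against a median of 7 and an upper quartile of 20 over all promoters. The Dnmt1 windows held 33 (printed), 12 and 2 CpG dinucleotides, the Uhrf1 windows 12 and 33 (printed), and the single Hells and Dnmt3b windows 34 and 30. The Dnmt3a windows held 46, 47 and 18 (printed), and the Dnmt3l windows 6, 4 (printed) and 3. The single windows of Tet1, Tet2, Tet3 and Tdg held 17, 57, 22 and 26. A match is a description of the letters only. Each locus has a single value per library, so the use of one start or another was not measured.

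The targeted gene and the cell identity were checked first. Zscan10 was at 5.49, 4.43 and 5.47 FPKM in the null libraries, against 44.2, 43.0 and 41.9 FPKM in the control libraries (FPKM is a fragment count scaled for transcript length and library depth, so levels of different genes can be set side by side). The ES cell markers Pou5f1, Nanog, Sox2, Klf4, Esrrb and Zfp42 summed to 1650 to 1769 FPKM in null and 1819 to 1861 FPKM in control libraries, with 0 of 6 higher and 2 of 6, Esrrb and Zfp42, lower. Of all tested loci 12.8% were called higher and 12.4% lower, and the marker counts here are to be read beside these shares. The Zfp42 call was lost without null replicate 3, control replicate 1 or control replicate 3, and with the replicate block (limma adjusted p = 0.0512). Klf4 was called lower only without null replicate 1 (log2 fold change -0.26, limma adjusted p = 0.0120). The 6 markers of the 2-cell-like state, a rare ES cell state, summed to 73.7 to 96.5 FPKM in null and 34.6 to 38.9 in control libraries, with 5 of 6 higher. Feeder fibroblast markers summed to 7.72 to 13.6 FPKM in null and 15.8 to 19.5 in control libraries over 10 genes, and Postn was at 0 in the 3 null libraries. Of the 3 tested, Thy1 was higher, at 2.98 FPKM in null and 1.65 in control cells, and Acta2 (1.73 FPKM in null, 3.93 in control) and Tagln (4.86 FPKM in null, 8.80 in control) were lower. Of the 10, null values lay wholly below control values for 6 and wholly above for 1, against 22.5% and 21.6% of all tested loci. The collagen genes Col1a1 (0.0861 FPKM in null, 0.738 in control) and Col1a2 (0.0776 FPKM in null, 1.13 in control) were among the 6, but too low for the main test. Without the minimum, their log2 fold changes were -0.68 and -0.98 (limma adjusted p = 0.00267 and 0.00149). In that fit Col3a1, Postn, Dcn, Lum and Pdgfra, also too low for the main test, did not pass. Primitive endoderm markers summed to 3.44 to 4.85 FPKM in null and 4.81 to 6.06 in control libraries over 6 genes, and epiblast markers to 29.9 to 32.3 FPKM in null and 31.3 to 33.7 in control libraries over 5 genes. Of the epiblast markers 3 were tested: Pou3f1 was higher, at 3.86 FPKM in null and 2.49 in control cells, Lef1 was lower, at 2.001 in null and 4.13 in control cells, and Otx2 did not pass. Of the endoderm markers 2 were tested and 0 called by limma, with 1 at an unadjusted p under 0.05. Of all 11480 tested loci, 4502 had such a p. No gene of these marker lists was at 0 in all 6 libraries, and the part of such cells in the results below was not tested. Bulk RNA cannot tell a change in the number of cells from a change in RNA per cell. The steps between low FPKM values placed the depth of the libraries within 0.986 to 1.09 times that of control replicate 1, which the same steps put at roughly 7.73 × 1e6 fragments.

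In Zscan10-null cells 3 of 3 de novo genes and 2 of 3 maintenance genes were called higher, and of the 3 erasure genes tested 0 were called higher and 1 lower. Of the 10 genes, 5 rose (Dnmt3a, Dnmt3b, Dnmt3l, Uhrf1 and Hells), by 1.28 to 1.58 times, and Tet2 fell to 0.848 times the control level. Dnmt1, Tet1 and Tdg did not pass the test, and Tet3 was too low to enter it. The test was limma on log2(FPKM + 1), run on the 11480 loci that averaged 1 FPKM or more, with a Benjamini-Hochberg adjusted p under 0.05 as the threshold. In this comparison 25.2% of all tested loci were called, 12.8% higher and 12.4% lower in null cells, against 5 of 9 tested members higher and 1 of 9 lower. The members had been chosen with earlier results of these data known, so these counts are a description and not an independent test. The members' median log2 fold change was 0.35, and that of all tested loci was -0.003. Null values lay wholly above control values for 6 of the 10 genes and wholly below for 1, where 21.6% and 22.5% of the tested loci did so.

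**Figure D1:**
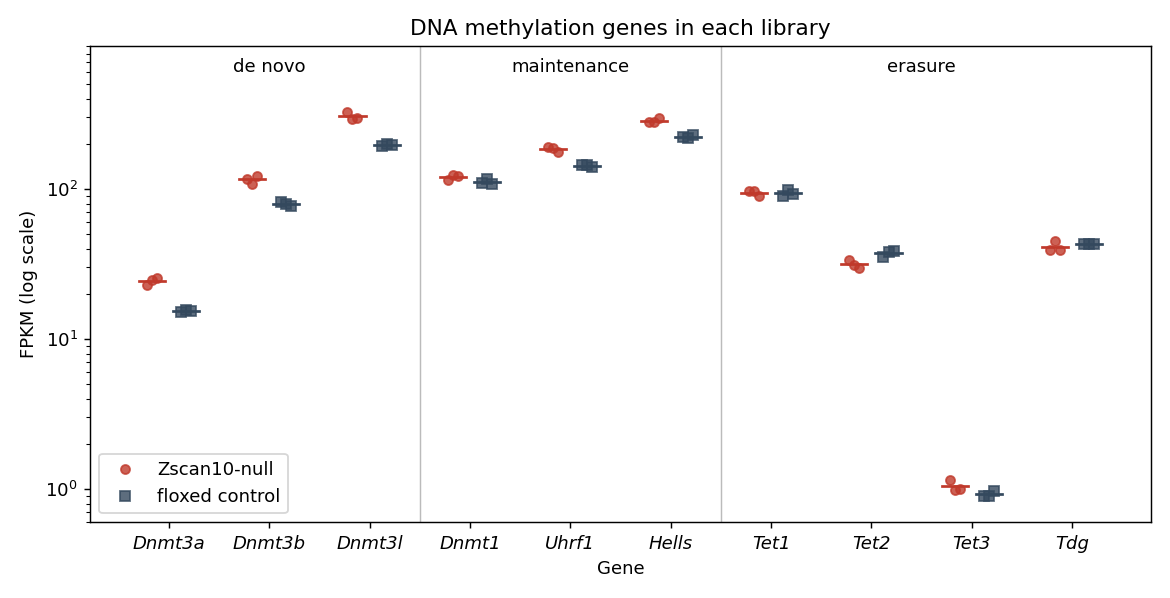
FPKM of the 10 genes on a log scale, with 1 point per library (circles, Zscan10-null; squares, floxed control) and a bar at the mean of each group of 3. The null points of Dnmt3a, Dnmt3b, Dnmt3l, Uhrf1 and Hells sit above every control point, and those of Tet2 below.

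The de novo genes had the largest changes of the 10. Dnmt3l, the cofactor of the de novo enzymes, lies on chromosome 10 (78041947 to 78063622, plus strand). It was at 325, 293.5 and 295 FPKM in null libraries, against 193, 199 and 196 FPKM in control libraries. Every null library was above every control library, and null replicate 1 was the highest. The means were 305 ± 17.6 and 196 ± 3.09 FPKM in null and control cells (SD, n = 3 each). The log2 fold change was 0.63 (SE 0.05, limma adjusted p = 3.57e-04), the 501st largest absolute change of the 11480 tested loci.

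Dnmt3a, a de novo methyltransferase on chromosome 12 (3806007 to 3914443, plus strand), was at 23.1, 24.6 and 25.5 FPKM in null libraries, against 15.2, 15.7 and 15.4 FPKM in control libraries. The groups did not overlap, and the control libraries were closer to each other than the null libraries were. The mean was 24.4 ± 1.23 FPKM in null and 15.4 ± 0.230 FPKM in control cells (SD, n = 3 each), a log2 fold change of 0.63 (SE 0.05, limma adjusted p = 5.21e-04). The locus covers the long form and the internal-start form DNMT3A2, whose promoter is printed above, and the files do not separate them.

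Dnmt3b, the other de novo methyltransferase, lies on chromosome 2 (153649450 to 153687730, plus strand). Its level was 116, 109 and 122 FPKM in null libraries, against 81.7, 79.6 and 76.9 FPKM in control libraries. All null libraries were higher than all control libraries. The mean was 116 ± 6.87 FPKM in null and 79.4 ± 2.42 FPKM in control cells (SD, n = 3 each), a log2 fold change of 0.54 (SE 0.05, limma adjusted p = 8.57e-04). All 3 de novo genes lay above the 95th percentile of tested loci, a log2 fold change of 0.43.

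**Figure D2:**
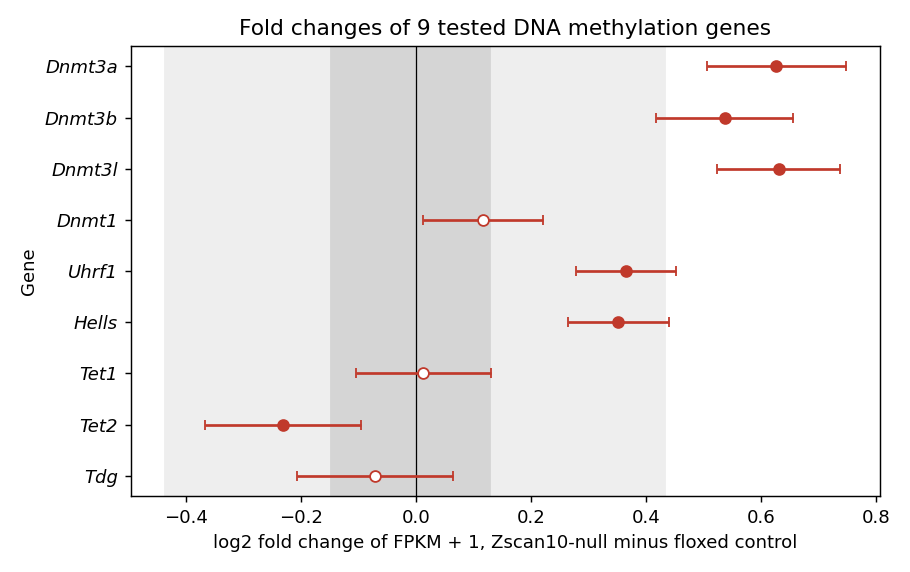
Log2 fold change of FPKM + 1, Zscan10-null minus floxed control, for the 9 tested genes, with 95% confidence intervals from limma; filled points passed an adjusted p of 0.05. The dark band runs from the 25th to the 75th percentile of all 11480 tested loci and the light band from the 5th to the 95th; Dnmt3a, Dnmt3b and Dnmt3l lie to the right of both, at 0.63, 0.54 and 0.63.

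In the maintenance group, Uhrf1 and Hells rose by less than the de novo genes, and Dnmt1 did not pass. Uhrf1, the reader of hemimethylated DNA, lies on chromosome 17 (56303321 to 56323486, plus strand). It was at 190, 187 and 177 FPKM in null libraries, against 144, 145 and 141 FPKM in control libraries. No null library came near the control range. Means were 185 ± 6.54 FPKM in null and 143 ± 2.11 FPKM in control cells (SD, n = 3 each), a log2 fold change of 0.37 (SE 0.04, limma adjusted p = 0.00106). The annotation holds a processed pseudogene, Gm5648, that matches 44.3% of the longest Uhrf1 transcript at 98.3% identity, so some reads may be shared.

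Hells, the LSH remodeller on chromosome 19 (38930915 to 38971051, plus strand), was at 281, 279.5 and 297 FPKM in null libraries, against 222, 220.3 and 229 FPKM in control libraries. The groups were again separate, with means of 286 ± 9.86 FPKM in null and 224 ± 4.57 FPKM in control cells (SD, n = 3 each). The log2 fold change was 0.35 (SE 0.04, limma adjusted p = 0.00123). Dnmt1, the maintenance methyltransferase on chromosome 9 (20907209 to 20959888, minus strand), was at 115, 124 and 122 FPKM in null libraries, against 110.0, 116 and 108 FPKM in control libraries. Null replicate 1 lay below control replicate 2, so the groups overlapped. The log2 fold change of Dnmt1 was 0.12 with a 95% interval of 0.01 to 0.22 (limma adjusted p = 0.0975), so its change was not separated from 0 after adjustment.

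Of the erasers, Tet2 alone passed, and it was lower. Tet2, on chromosome 3 (133463679 to 133545139, minus strand), was at 33.7, 31.3 and 29.95 FPKM in null libraries, against 35.3, 38.2 and 38.5 FPKM in control libraries. The highest null library lay under the lowest control library, so the groups did not overlap. Means were 31.7 ± 1.91 FPKM in null and 37.4 ± 1.75 FPKM in control cells (SD, n = 3 each), a log2 fold change of -0.23 (SE 0.06, limma adjusted p = 0.0256). This call was lost when null replicate 2 or 3 or control replicate 2 or 3 was left out, with adjusted p from 0.0695 to 0.0885, and with the replicate block (0.0676).

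Tet1, the most abundant eraser, lies on chromosome 10 (62804570 to 62908996, minus strand). It was at 97.2, 96.5 and 90.5 FPKM in null libraries, against 89.3, 99.2 and 93.3 FPKM in control libraries. The groups were interleaved, and the log2 fold change was 0.01 with a 95% interval of -0.10 to 0.13 (limma adjusted p = 0.876). Tdg, the glycosylase on chromosome 10 (82629828 to 82650799, plus strand), was at 39.0, 44.9 and 39.3 FPKM in null libraries, against 43.3, 43.1 and 42.95 FPKM in control libraries. Null replicate 2 was above and the other null libraries below the control range, and the log2 fold change was -0.07 with a 95% interval of -0.21 to 0.06 (limma adjusted p = 0.404). The Tdg value is uncertain, because the processed pseudogene Tdg-ps matches 84.8% of its longest transcript at 98.7% identity and could take part of its reads.

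Tet3, the form best known from the oocyte and zygote, lies on chromosome 6 (83362373 to 83459084, minus strand). It was at 1.16, 0.982 and 0.996 FPKM in null libraries, against 0.894, 0.903 and 0.965 FPKM in control libraries. Null values were all slightly higher, but the mean over the 6 libraries lay under 1 FPKM, and each value rested on roughly 75.4 to 96.2 fragments. Without the minimum, the log2 fold change was 0.09 (limma adjusted p = 0.512), so a difference was not detectable at this depth.

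The order of the levels shifted in 2 places. In null cells Dnmt3l had the highest mean level, followed by Hells, Uhrf1, Dnmt1, Dnmt3b, Tet1, Tdg, Tet2, Dnmt3a and Tet3. In control cells Hells stood above Dnmt3l and Tet1 above Dnmt3b, and the rest of the order was the same. In null cells the ranges of the neighbours Dnmt3l and Hells overlapped, as did those of Dnmt1 and Dnmt3b. In control cells no neighbours overlapped. Dnmt3a stayed the lowest of the writers in both groups, at 17.4% ± 0.952 of the summed Dnmt3a and Dnmt3b FPKM in null and 16.3% ± 0.491 in control cells (SD, n = 3 each).

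Ratios between the genes were taken in each library. The 3 ratios among the de novo genes overlapped between the groups. Dnmt3l over Dnmt3a was 14.1, 11.9 and 11.6 in null libraries, against 12.7, 12.7 and 12.8 in control libraries (exact two-sided permutation test, p = 1). Dnmt3b over Dnmt3a averaged 4.75 ± 0.310 in null and 5.15 ± 0.188 in control cells (exact two-sided permutation p = 0.2), and Dnmt3l over Dnmt3b 2.64 ± 0.201 and 2.47 ± 0.0994 (exact p = 0.3), SD with n = 3 each. For Dnmt3l over Dnmt3a the null values lay on both sides of the control values. For Dnmt3b over Dnmt3a 2 null libraries lay below all controls, and for Dnmt3l over Dnmt3b 2 lay above all controls. Whether these proportions shifted cannot be settled with 3 libraries a group.

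The ratios that follow did not overlap between null and control libraries, but no test established a difference. Summed Dnmt3a and Dnmt3b over Dnmt1 was 1.21, 1.08 and 1.21 in null libraries, against 0.882, 0.822 and 0.858 in control libraries. Summed Dnmt3a and Dnmt3b RNA thus stood above Dnmt1 RNA in each null library and below it in each control library. Dnmt3l, which is not in this sum, stood above Dnmt1 in every library of both groups. Uhrf1 over Dnmt1 was 1.65, 1.51 and 1.45 in null libraries, against 1.31, 1.247 and 1.31 in control libraries, and Hells over Dnmt1 was 2.44, 2.25 and 2.43, against 2.02, 1.90 and 2.13. Both of these pairs separated the groups. Summed TET over summed Dnmt3a and Dnmt3b was 0.950, 0.966 and 0.820 in null libraries, against 1.29, 1.45 and 1.44 in control libraries. TET RNA was thus the smaller sum in each null library and the larger in each control library.

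Within the TET genes, Tet2 over Tet1 was 0.347, 0.325 and 0.331 in null libraries, against 0.396, 0.385 and 0.413 in control libraries, without overlap. Tet1 made up 74.3% ± 0.676 of the TET sum in null and 71.0% ± 0.747 in control cells, and Tet3 0.819% ± 0.0566 and 0.697% ± 0.0392 (SD, n = 3 each). Of 8 two-gene ratios tested, Uhrf1 over Dnmt1, Hells over Dnmt1 and Tet2 over Tet1 reached the smallest p that 20 assignments allow (exact two-sided permutation p = 0.1, 0.267 after adjustment over the 8). With 3 libraries against 3 no ratio could pass 0.05. The ratios of sums are given as descriptions without a test.

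**Figure D3:**
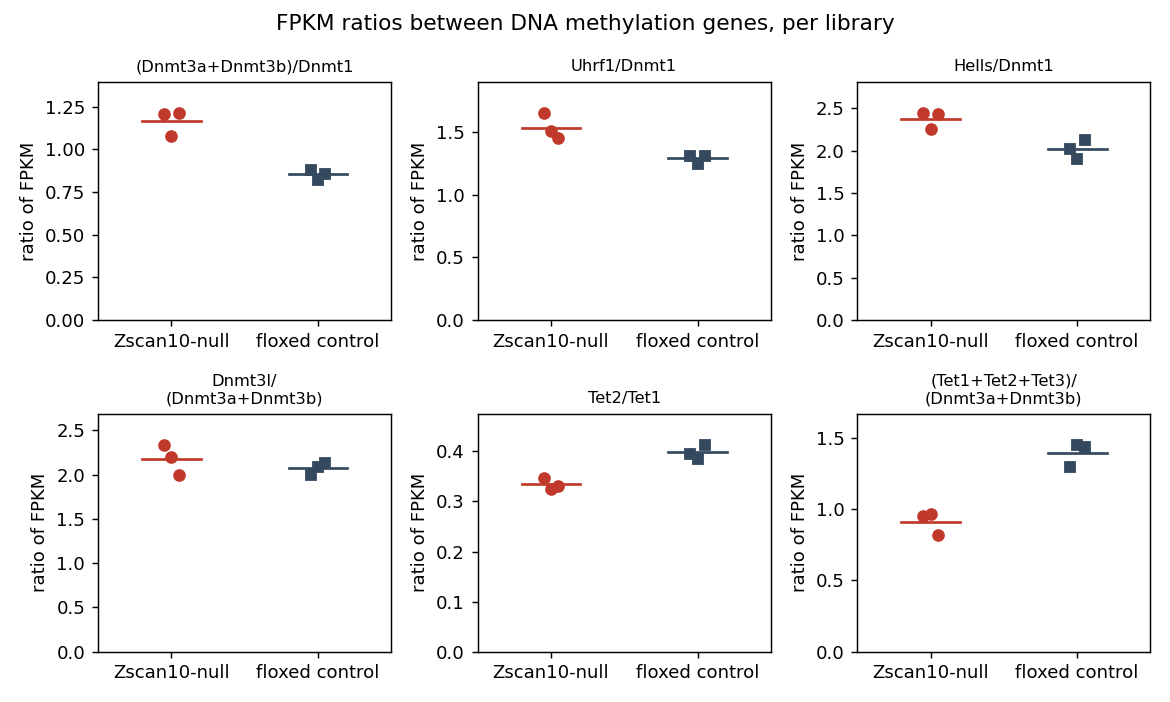
FPKM ratios between the genes, with 1 point per library (circles, Zscan10-null; squares, floxed control) and a bar at the group mean; each axis starts at 0. The groups are apart for all panels but Dnmt3l over summed Dnmt3a and Dnmt3b, where the null mean was 2.18 and the control mean 2.07.

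The neighbourhoods of the genes were looked at after these values were seen. Within 100 kb of the 10 genes lay 33 other tested loci, of which 7 rose and 1 fell. Among all tested loci 12.8% rose and 12.4% fell. All 3 tested neighbours of Dnmt3l rose. Aire, the autoimmune regulator gene, whose exons overlap 67 bases of Dnmt3l on the opposite strand, was at 10.2, 8.66 and 10.2 FPKM in null libraries, against 4.64, 3.94 and 5.63 FPKM in control libraries (limma adjusted p = 0.00248). The costimulatory ligand gene Icosl was at 7.45 ± 0.375 FPKM in null and 4.66 ± 0.832 FPKM in control cells (SD, n = 3 each, limma adjusted p = 0.00927), and the phosphofructokinase gene Pfkl at 86.2 and 77.4 FPKM (limma adjusted p = 0.0257). Whether counting used strand is not given, so fragments of the shared bases of Dnmt3l and Aire cannot be assigned. The other called neighbours were Icam1 near Dnmt1, Plin3 near Uhrf1 and Ccar1 and Dna2 near Tet1, which rose, and Mthfd2 near Tet3, which fell. Plin3, a lipid droplet gene, was at 67.1 ± 3.27 FPKM in null and 44.2 ± 3.10 FPKM in control cells (SD, n = 3 each, limma adjusted p = 0.00105).

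The loci whose profile over the 6 libraries was most like that of Dnmt3l were Nudt4, Slc25a4, Sgpl1, Folr1 and Kdm2b. Likeness was the root-mean-square difference of mean-centred log2(FPKM + 1) values, which was 0.03 for Nudt4, the nearest, and 0.04 for the other 4. Their means were 85.0, 374, 37.7, 40.0 and 35.5 FPKM in null cells, against 54.9, 244, 23.0, 26.6 and 23.3 FPKM in control cells. They had been picked for this likeness, so their own calls add nothing.

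Genes that work with these 10 were taken from 6 lists, of whose 81 symbols 80 were found. The lists had been chosen with earlier results of these data known. Of their 71 tested genes 22 rose and 7 fell, with a median log2 fold change of 0.10. Over all tested loci 12.8% rose and 12.4% fell, and the counts of each list below are to be read beside these shares.

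**Figure D4:**
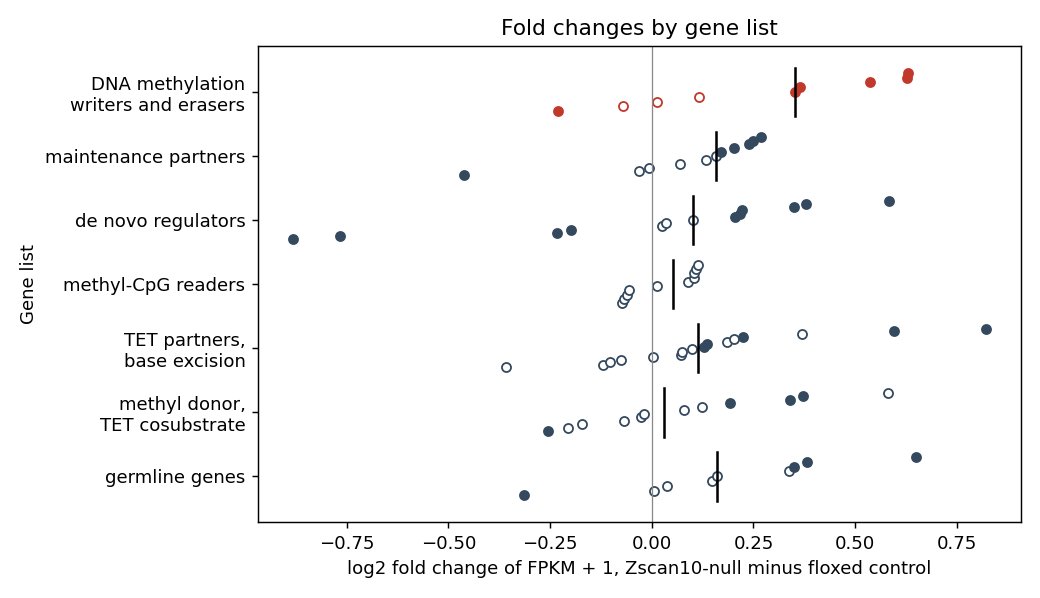
Log2 fold change of FPKM + 1, Zscan10-null minus floxed control, for each tested gene of the 10 and of the 6 lists, with a bar at each list's median; filled points passed a limma adjusted p of 0.05. The medians run from 0.03 for methyl donor and TET cosubstrate genes to 0.35 for the writers and erasers. No point is filled in the list of methyl-CpG readers and their gene family relatives.

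Among 11 partners of maintenance methylation 5 rose and 1 fell, with a median of 0.16. Pcna, the replication clamp, was at 452, 469.5 and 491 FPKM in null libraries, against 391, 391 and 405 FPKM in control libraries (limma adjusted p = 0.00502). The replicative ligase gene Lig1 was at 114, 109 and 105 FPKM in null libraries, against 89.5, 89.0 and 92.5 FPKM in control libraries (limma adjusted p = 0.0045). Pclaf, the PCNA-associated factor listed in the files as 2810417H13Rik, went the other way, at 19.5, 20.6 and 21.9 FPKM in null libraries, against 28.3, 28.9 and 29.2 FPKM in control libraries (limma adjusted p = 0.00146). The histone deacetylase genes Hdac1 and Hdac2 and the H3K9 methyltransferase gene Ehmt2 rose by 0.20, 0.17 and 0.24 on the log2 scale. With quantile normalization Pcna and Hdac2 no longer passed (limma adjusted p = 0.0912 and 0.105), and the count of partners that rose was 3. It was also 3 without null replicate 2, null replicate 3 or control replicate 1, when Ehmt2 and Hdac2 lost their calls; Ehmt2 also lost its call without control replicate 3 and Hdac2 without control replicate 2.

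Of 13 regulators of de novo methylation 6 rose and 4 fell, with a median of 0.10. Prdm14, a repressor of Dnmt3 genes in mouse ES cells, was at 7.12, 5.23 and 5.47 FPKM in null libraries, against 10.7, 10.4 and 11.1 FPKM in control libraries (limma adjusted p = 0.00275). All 3 null libraries lay under the control range. Dppa3 (Stella), which keeps UHRF1 from chromatin in mouse oocytes, was at 13.5, 19.6 and 14.4 FPKM in null libraries, against 28.1, 29.4 and 31.6 FPKM in control libraries (limma adjusted p = 0.00327). Dppa2, which guards bivalent promoters against methylation, was at 148, 141 and 134 FPKM in null libraries, against 110, 108 and 106 FPKM in control libraries (limma adjusted p = 0.00168). Kdm2b, whose product binds unmethylated CpG islands, averaged 35.5 ± 3.07 FPKM in null and 23.3 ± 0.322 FPKM in control cells, and the H3K9 methyltransferase gene Setdb1 47.0 ± 1.97 and 36.6 ± 0.850 FPKM (SD, n = 3 each). Nsd1, whose H3K36 methylation recruits DNMT3A, averaged 92.7 and 79.3 FPKM in null and control cells (limma adjusted p = 0.00717).

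Of the 10 tested methyl-CpG readers and their gene family relatives, 0 were called by limma and 0 had an unadjusted p under 0.05. Over all 11480 tested loci, 4502 had such a p. The median log2 fold change of the 10 genes was 0.05. Zfp57, which binds methylated imprinting control regions, was at 138 ± 11.1 FPKM in null and 137 ± 7.82 FPKM in control cells, and Mbd3 at 44.5 ± 3.11 and 46.5 ± 3.56 FPKM (SD, n = 3 each).

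Among 16 tested TET partners and base excision genes 5 rose and 0 fell, with a median of 0.11. Gadd45b and Gadd45a, stress-induced genes linked to demethylation, had the largest changes. Gadd45b was at 10.4, 10.7 and 8.61 FPKM in null libraries, against 4.53, 5.30 and 5.68 FPKM in control libraries (limma adjusted p = 0.00216). Gadd45a was at 30.4, 34.4 and 26.8 FPKM in null libraries, against 20.7, 18.6 and 19.996 FPKM in control libraries (limma adjusted p = 0.00399). The stem cell factor gene Sall4, the poly-ADP-ribose polymerase gene Parp1 and the TET-binding O-GlcNAc transferase gene Ogt rose by 0.23, 0.13 and 0.13 on the log2 scale. Parp1 and Ogt lost their calls with quantile normalization (limma adjusted p = 0.367 and 0.135) and without control replicate 2, and Ogt also without null replicate 2, null replicate 3, control replicate 1 or control replicate 3.

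Of 12 genes for the methyl donor and for cosubstrates of TET enzymes, 3 rose and 1 fell, with a median of 0.03. Methionine synthase, Mtr, was at 18.2, 18.2 and 18.4 FPKM in null libraries, against 13.8, 14.5 and 14.4 FPKM in control libraries (limma adjusted p = 0.00267). The isocitrate dehydrogenase gene Idh1 averaged 42.1 FPKM in null and 36.8 FPKM in control cells (limma adjusted p = 0.0142). The vitamin C transporter gene Slc23a2 fell, at 13.5 and 16.3 FPKM in null and control cells (limma adjusted p = 0.0229). The Slc23a2 call was lost without null replicate 2, control replicate 2 or control replicate 3, and the Idh1 call without control replicate 1 or 2.

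The last list held germline genes whose promoters are known in mouse as targets of DNA methylation. Of 15 in the list 9 were tested, 3 rose and 1 fell, where 12.8% and 12.4% of all tested loci did so, and the median was 0.16. The meiotic gene Hormad1 was at 24.2, 19.6 and 21.3 FPKM in null libraries, against 13.8, 13.5 and 13.005 FPKM in control libraries (limma adjusted p = 0.00176). Stk31 averaged 9.49 and 7.02 FPKM and Mael, of the piRNA pathway, 12.1 and 9.22 FPKM in null and control cells (limma adjusted p = 0.0189 and 0.0494). The germ cell transcription factor gene Sohlh2 was lower, at 6.74 and 8.61 FPKM in null and control cells (limma adjusted p = 0.0208). Leaving out any library but null replicate 1 left Hormad1 as the only germline gene called higher, and Mael lost its call without null replicate 1 as well. The Sohlh2 call was lost without null replicate 2, null replicate 3, control replicate 1 or control replicate 2.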

How the data were processed

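The authors deposited 1 FPKM value per locus and library; no label or header states the unit, which was inferred from the values. The tools listed in the submitters' processing notes are TopHat, Cuffdiff, FastQC and Trim Galore, with build mm10, and nothing used here tells their versions, roles, scaling or use of strand. The members and lists were chosen with earlier results of these data known. Differences were fitted to log2(FPKM + 1) in R 4.3.3 with limma 3.58.1 (lmFit and trended eBayes) where the mean reached 1 FPKM, with Benjamini-Hochberg adjustment and a threshold of 0.05, after the code was tested on simulated data. This scale understates changes of low genes. Ratios were compared by exact two-sided permutation. Relative depth was read from steps between low values, of which 84.5% were whole within 1%, so it is rough. Named genes were Zscan10, the 10 members, the called genes of each list (up to 6 by lowest adjusted p, or the 2 most abundant where fewer than 2 passed), 6 ES cell markers, and the 5 named loci averaging at least 5 FPKM with profiles nearest to the most changed member; other names were chosen after their values were seen. Loci are from GENCODE M21, promoters from RefSeq, and near-identical copies from blastn 2.17.0 (95% identity, 200 bases). Protein sequences are not used here, and 1 called list gene is not reported here by name.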

Additional observations from a re-analysis of the deposited data

How the results depend on the processing

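Dnmt3a, Dnmt3b, Dnmt3l, Uhrf1 and Hells stayed higher and past the threshold in all 13 alternatives run (pseudocount, minimum, scaling, trend, replicate block and each library left out), with highest adjusted p of 0.00577, 0.0071, 0.00516, 0.00796 and 0.0092. The count of members called lower, 1 as reported (Tet2), was 0 with the replicate block and 0 to 1 when 1 library was left out. In those fits the count of loci called higher ran from 915 to 1472 and lower from 782 to 1431, against 1468 and 1426. The list genes called higher ran from 15 to 23 and lower from 4 to 6, against 22 and 7. The near-zero log2 fold change of Tet1 was -0.0382 with quantile normalization and ran from -0.0224 to 0.0524 when 1 library was left out, and that of Zfp57 was -0.03999 and ran from -0.0498 to 0.0599. The log2 difference of Dnmt3l over Dnmt3a, -0.03, was 0.00359 with a pseudocount of 1 and ran from -0.113 to 0.0277 when 1 library was left out. The fits with 1 library left out rest on fewer libraries, and the cause of these changes was not tested. Deviations of same-numbered libraries correlated at -0.002, 0.11 and 0.05, and those of other-numbered libraries at -0.22 to 0.16. Replicate 2 of both groups had the highest relative depth, 1.09. Whether the replicate numbers pair the libraries was therefore not settled. With the replicate block 1190 loci were higher and 1074 lower, and 5 members were higher. For the ratios, exact sign flips of the 3 same-numbered pairs gave a smallest p of 0.25, the lowest that they allow. Ogt, Slc23a2 and Zfp42 lost their calls under the block (adjusted p = 0.0601, 0.0548 and 0.0512), as did Hdac2, Parp1, Ogt and Mael without the mean-variance trend (0.0667, 0.0643, 0.0829 and 0.0639) and Mael without the minimum (0.0806). With 3 libraries a group, small differences in Dnmt1, Tet1, Tet3 and Tdg could not be told from no difference.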
